A study of Caenorhabditis elegans with 2 samples.

Results

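The histone genes of Caenorhabditis elegans were examined for regions precipitated with the tagged protein ZIM-3, a zinc finger protein known for its role in pairing of homologous chromosomes in meiosis. Members were taken by name from the protein-coding genes of the WBcel235 annotation: every gene named his-, every gene named hil-, htz-1 and hcp-3. This gave 82 of 19973 protein-coding genes. Of these, 65 were core histone genes lying in 14 clusters, where neighbouring starts were at most 5 kb apart, and 0 core genes lay outside a cluster. The other 17 were variant and linker genes: htz-1, hcp-3, the genes his-69 to his-74, hil-1 to hil-8 and his-24. The clustered genes comprised 17 annotated as H2A, 16 as H2B, 15 as H3 and 16 as H4, with his-39 as a fragment that was given no type. Types of core genes came from the RefSeq product names, while the variant and linker genes were grouped by their symbols. Among the latter, his-73 was annotated only by a histone domain and was a short gene of 141 bp.

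ChIP-seq, the sequencing of DNA co-precipitated with a chromatin protein, was carried out on whole animals of strain OP581, genotype unc-119(tm4063) III; wgIs581. The wgIs581 transgene encodes ZIM-3 with GFP and FLAG at its C terminus, and the precipitating antibody was against GFP. Both samples, which were biological replicates 1 and 2 of 1 group, held male and female animals pooled as young adults, 54.5 h after synchronisation of starved L1 larvae. The transgenic protein was measured, not the endogenous one, and germline and somatic nuclei of all tissues were pooled, so a region cannot be assigned to a cell type. No untagged strain and no control library was analysed here, and no comparison of conditions was possible. The deposited lists hold regions and no reads, so sequencing depth is unknown.

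Core histones form the protein spool of the nucleosome, an octamer of H2A, H2B, H3 and H4, and linker histones of the H1 family bind the DNA between nucleosomes. Core genes are transcribed mostly in S phase, are present in many nearly identical copies, and often lie in divergent pairs that share the sequence between their starts. The variants H2A.Z, H3.3 and CENP-A are made from separate genes and enter chromatin outside replication, CENP-A at centromeres.

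The sequences below show the starts of 4 divergent core pairs and the region with the highest signal at a variant gene. The pairs his-60/his-59 and his-2/his-1 had a listed region with its summit between the starts, while his-46/his-45 and his-50/his-49 had none in the pooled list. The sequences are from the WBcel235 genome (RefSeq), plus strand, from the base after the left gene's start to the base before the right gene's start. They lie at chrIV:7487993-7488248, chrV:16042284-16042519, chrIV:11326330-11326587 and chrV:8847705-8847942. In each of these pairs the left gene is on the minus strand and the right gene on the plus strand. The sequence at htz-1 is chrIV:4445799-4445999, plus strand, 100 bp to each side of the summit. Capitals mark TATAAA, the TATA box core, on either strand (TTTATA on the plus strand).
his-60/his-59: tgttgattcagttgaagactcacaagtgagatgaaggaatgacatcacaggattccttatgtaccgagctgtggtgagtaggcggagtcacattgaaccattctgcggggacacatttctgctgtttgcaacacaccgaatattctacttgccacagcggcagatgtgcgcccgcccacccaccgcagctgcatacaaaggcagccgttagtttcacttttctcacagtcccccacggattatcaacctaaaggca
his-2/his-1: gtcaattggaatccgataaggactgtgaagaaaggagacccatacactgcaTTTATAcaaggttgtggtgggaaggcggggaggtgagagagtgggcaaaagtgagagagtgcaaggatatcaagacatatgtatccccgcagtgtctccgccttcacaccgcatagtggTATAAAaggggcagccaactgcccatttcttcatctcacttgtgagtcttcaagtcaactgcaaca
his-46/his-45: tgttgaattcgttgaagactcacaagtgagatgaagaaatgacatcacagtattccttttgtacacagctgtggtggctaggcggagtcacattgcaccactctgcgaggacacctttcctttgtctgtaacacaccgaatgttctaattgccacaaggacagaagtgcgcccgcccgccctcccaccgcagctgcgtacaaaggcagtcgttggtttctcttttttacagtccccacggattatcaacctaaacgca
his-50/his-49: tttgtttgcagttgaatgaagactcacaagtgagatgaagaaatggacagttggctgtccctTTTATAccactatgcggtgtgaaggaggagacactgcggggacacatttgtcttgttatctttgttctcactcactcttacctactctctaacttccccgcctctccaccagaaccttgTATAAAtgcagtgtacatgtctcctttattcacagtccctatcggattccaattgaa
htz-1 summit: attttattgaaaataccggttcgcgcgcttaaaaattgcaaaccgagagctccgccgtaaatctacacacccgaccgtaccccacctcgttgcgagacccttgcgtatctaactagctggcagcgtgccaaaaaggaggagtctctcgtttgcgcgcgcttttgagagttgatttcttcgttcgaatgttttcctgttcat

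In a global alignment, taken in the better of both orientations, the sequence of his-60/his-59 was 85.8% identical to that of his-46/his-45. The sequence of his-2/his-1 was 87.9% identical to that of his-50/his-49. The other combinations of these 4 pairs were 61.5% to 62.9% identical. The sequence of his-46/his-45 had a near copy at his-55/his-56 with 99.6% identity, and that of his-50/his-49 was repeated exactly at his-28/his-27. So each pair with a summit had its closer relative, among these 4, in a pair without one. These 4 were a choice of pairs with and without a summit, not a sample of all pairs. Over all pairs of its kind, his-2/his-1 was closest to his-6/his-5 (89.9%), which is not among the 4. Both shown pairs without a summit had a near or exact copy elsewhere in the genome. This does not hold for all pairs, as some without such a copy also lacked a pooled summit between the starts. Among these were his-31/his-32, at most 58.8% identical to another pair of its kind, and his-4/his-3, at most 88.7%. TATAAA within 250 bp before and 50 bp after the start, on either strand, was found at 44 of 65 clustered core genes (67.7%), at 8 of 17 variant and linker genes (47.1%) and at 37.9% of all protein-coding genes. The starts of a core pair lie so close that the same TATAAA can be counted for both genes. Many pairs are also exact copies, and most core starts are start codons. So 44 is not a count of independent sites, and the shares are not like measures. Among clustered genes, 14 of 22 with a pooled region had it (63.6%) and 30 of 43 without a region had it (69.8%). The his-60/his-59 sequence, with the highest signal of all members, held none. The pooled summit lay 36 bp from the start of his-60.

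For each gene the score was the highest signal of a listed region whose summit lay within 1 kb of the gene start. Signal is the authors' deposited value and has its own scale in each list, so values are compared within a list, with rank 1 as the highest. The pooled list and the list of each replicate hold 30000 regions of peaks and background together. The irreproducible discovery rate (IDR) list holds 906 regions that passed the authors' comparison of the replicates. The lowest listed signal was 50.5 in the pooled list, 38.5 in replicate 1 and 15.1 in replicate 2. A gene with no listed region has no value in these lists, so its level is not known and is not a measured 0.

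In the pooled list, 32 of 82 histone genes had a region (39.0%), against 47.6% of all protein-coding genes. The clustered core genes had regions at 22 of 65 (33.8%) and the variant and linker genes at 10 of 17 (58.8%). This order was reversed among genes with over 50% unique 50-base words around the start, a measure given below. There it was 19 of 24 clustered genes (79.2%), 10 of 17 variant and linker genes (58.8%) and 48.5% of all protein-coding genes. In the IDR list, 5 of 82 members had a region (6.1%), against 2.5% of all protein-coding genes, and these 5 genes were reached by 3 regions. The 5 were the H3 gene his-59 and the H4 gene his-60, the H4 gene his-67 and the H2A gene his-68, and the H2A.Z gene htz-1. Members with scores in the highest 10.0% of protein-coding genes numbered 12 (14.6%). These were 7 of 65 clustered genes (10.8%) and 5 of 17 variant and linker genes (29.4%). They include his-42, his-72 and htz-1, whose pooled summits lay inside or nearer to another gene, as given below. The share of members with any region was below that of all protein-coding genes at this distance and list depth, but not at every setting. With summits within 500 bp it was 31.7% against 30.4%, and with the highest 10000 regions it was 22% against 19.6%. The share in the IDR list was above the background in all alternatives run for it. The share in the highest scores was above it except when regions were tied to the gene body plus 500 bp on each side, which gave 8 members (9.76%). No test was made of these differences. Genes of a divergent pair share regions, so these counts are not counts of independent sites: 31 distinct regions lay near members, and 14 of them near 2 or more members.

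Each replicate list gave a similar number. Replicate 1 had regions at 33 members, against 47.6% of protein-coding genes, and replicate 2 at 32 members, against 46.9%. Both replicates had regions at 27 members (32.9%), against 33.1% of protein-coding genes. Of the 31 pooled regions near members, 21 had a summit in both replicates within 200 bp, 7 in replicate 1 alone, 3 in replicate 2 alone and 0 in neither. The share of members listed in both replicates was close to the background share.

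**Figure D1:**
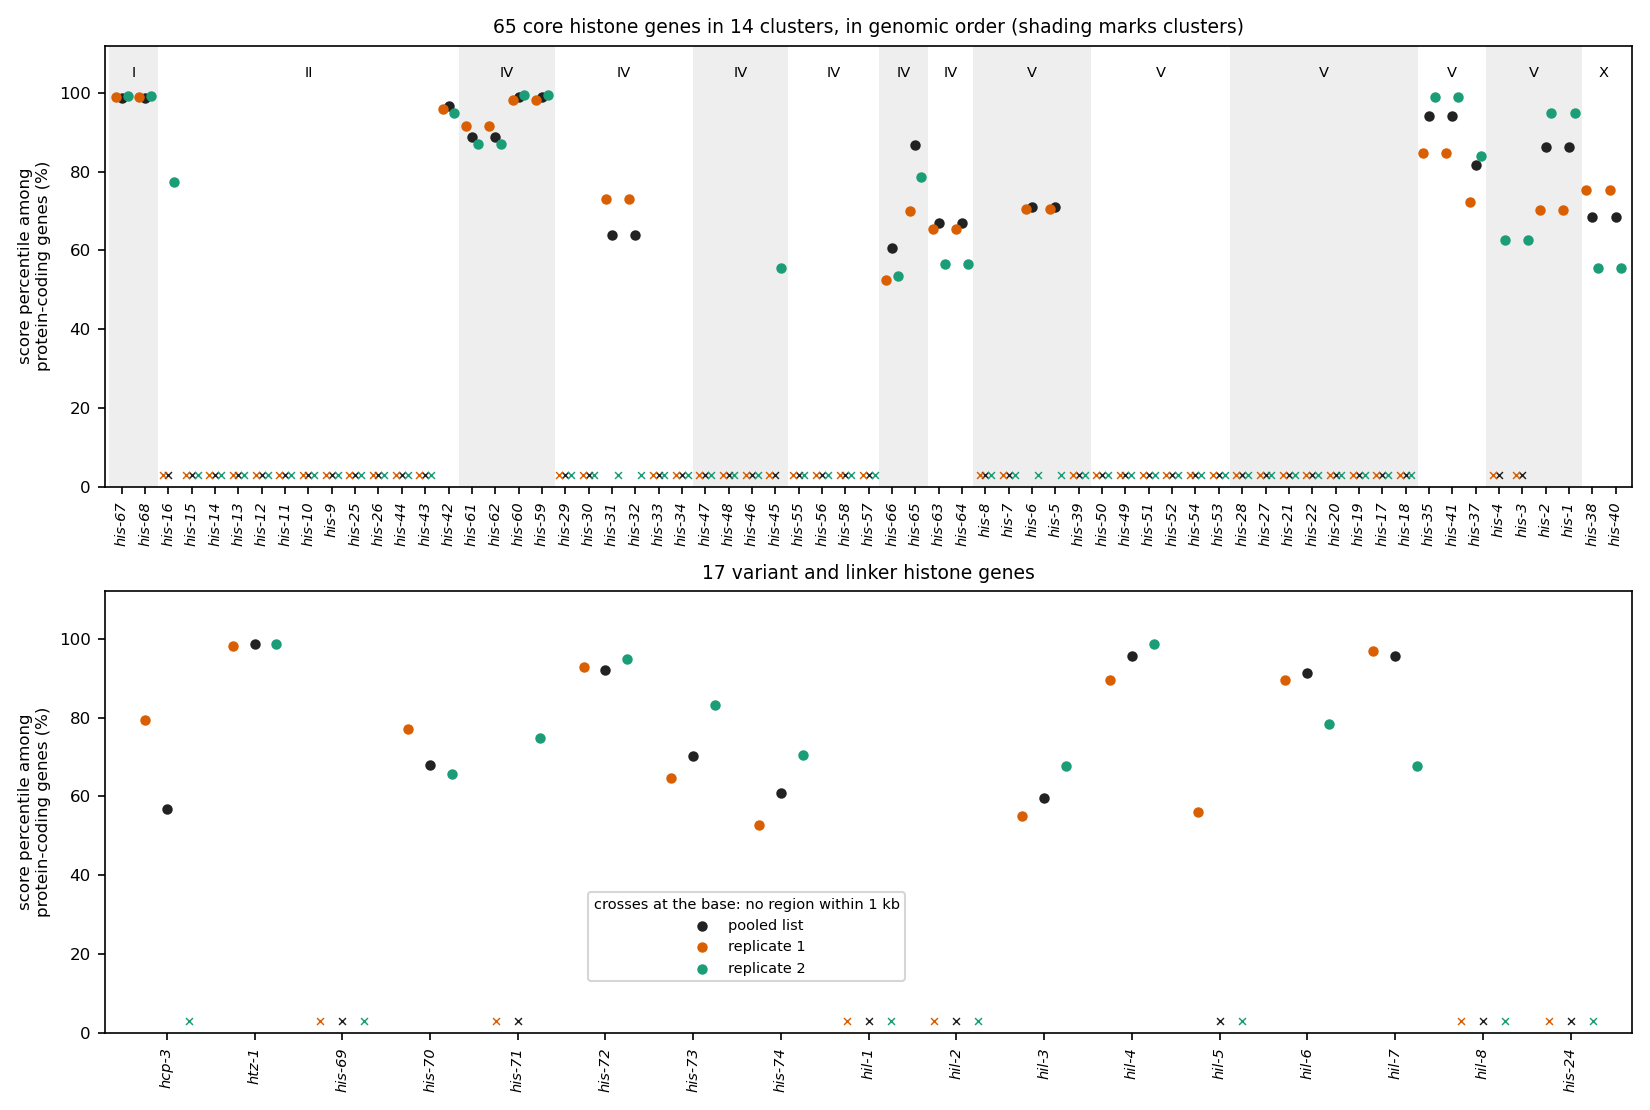
Score of each histone gene as its percentile (%) among all protein-coding genes in the pooled list (black), replicate 1 (orange) and replicate 2 (green), with core genes in genomic order under the chromosome number of their cluster (top) and variant and linker genes (bottom). Crosses at the base, placed at an arbitrary height, mark genes with no region within 1 kb in that list, which holds for nearly all genes of the large clusters on chromosomes II and V.

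By histone type, pooled regions were found at 7 of 15 H3 genes, 8 of 16 H4 genes, 4 of 17 H2A genes and 3 of 16 H2B genes. In replicate 2 the counts were 6 of 15 H3 genes, 6 of 16 H4 genes, 6 of 17 H2A genes and 4 of 16 H2B genes. In the pooled list the shares of H3 (46.7%) and H4 (50%) were near the 47.6% of all protein-coding genes, and those of H2A (23.5%) and H2B (18.8%) were below it. In replicate 2 the shares of H3 (40.0%), H4 (37.5%), H2A (35.3%) and H2B (25%) were all below its background of 46.9%. The types are interspersed in the same clusters and genes of a pair share regions, and no difference between types was tested. Repeated sequence also differed between them. An exact second copy of the sequence between the starts existed for 12 of 16 H2A and H2B pairs and 5 of 14 H3 and H4 pairs. The pooled H3 count includes his-42 and the H2A count his-65, whose pooled summits lay inside other genes.

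The highest member region lay between his-60, which encodes H4, and his-59, which encodes H3 (WBGene00001934 and WBGene00001933), in a cluster of 4 genes on chromosome IV. Its signal was 185.6 in the pooled list (rank 379), 123.2 in replicate 1 (rank 561) and 69.3 in replicate 2 (rank 165). Both replicates placed it high, and the 3 summits lay 36, 94 and 6 bp upstream of the his-60 start. The neighbouring pair in that cluster, his-61 (H2A) and his-62 (H2B), shared a region of 91.0 in the pooled list (rank 5113), 75.2 in replicate 1 (rank 3640) and 27.02 in replicate 2 (rank 6434). The pooled summit there was not between the starts but 282 bp downstream of the his-62 start, whereas the highest summit of replicate 2 lay between them, 130 bp from the his-61 start. All 4 genes of this cluster were listed in the pooled list and in both replicates.

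The region of his-67 (H4) and his-68 (H2A) on chromosome I (WBGene00001941 and WBGene00001942) had a pooled signal of 181.5 (rank 407). It was 145.3 in replicate 1 (rank 333) and 61.4 in replicate 2 (rank 253). This pair is unlike the other 30 divergent pairs in joining an H2A gene to an H4 gene, and its summit lay between the starts in all 3 lists.

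The divergent pair his-35 (H2A) and his-41 (H2B) on chromosome V had the highest score of its cluster. Its pooled signal was 108.6 (rank 2408), with 63.1 in replicate 1 (rank 7413) and 54.3 in replicate 2 (rank 392). Replicate 2 placed this region among its highest 906 regions and replicate 1 did not. The H4 gene his-37 of the same cluster had 78.0 in the pooled list (rank 9321), 51.1 in replicate 1 (rank 15093) and 25.3 in replicate 2 (rank 8206), the last at a summit 800 bp downstream of the start against 381 bp in the pooled list. The H3 gene his-2 and the H4 gene his-1 shared a region of 85.6 in the pooled list (rank 6527), 49.6 in replicate 1 (rank 16454) and 35.3 in replicate 2 (rank 2172). In all 3 lists the his-2/his-1 summit lay between the starts, 54, 54 and 42 bp from the his-2 start. Their cluster neighbours his-4 (H2B) and his-3 (H2A) had no region in the pooled list or in replicate 1, and a region of 17.6 in replicate 2 (rank 22195).

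In the other clusters with listed pairs, the pooled summits lay outside the sequence between divergent starts. The value given for a list is its highest region within 1 kb, which need not be the same site in each list. The H4 gene his-38 and the H3 gene his-40 on chromosome X had 63.6 in the pooled list (rank 17720), 53.7 in replicate 1 (rank 12887) and 15.7 in replicate 2 (rank 27843). The replicate 2 summit lay on the other side of the pair, and no summit of replicate 2 lay within 200 bp of the highest pooled one. The H3 gene his-63 and the H4 gene his-64 on chromosome IV had 62.5 in the pooled list (rank 18580), 46.5 in replicate 1 (rank 19673) and 16.03 in replicate 2 (rank 26772), and within 200 bp of the pooled summit replicate 1 had 44.4 (rank 22043). The values of these 2 pairs were under the median of all listed regions, which was 67.4 in the pooled list, 51.2 in replicate 1 and 20.7 in replicate 2, except for his-38 and his-40 in replicate 1. The pair his-6 (H3) and his-5 (H4) had 66.0 in the pooled list (rank 16002) and 49.9 in replicate 1 (rank 16232), and none in replicate 2. The pair his-31 (H4) and his-32 (H3) had 59.6 in the pooled list (rank 20937) and 51.7 in replicate 1 (rank 14539), and none in replicate 2. For these last pairs, and for the highest pooled region of his-38 and his-40, the listing thus rested on replicate 1. A second, lower pooled region of his-38 and his-40, of 51.1 (rank 29320), was matched within 200 bp in both replicates. The H2A gene his-65 had 86.4 in the pooled list (rank 6262), 49.5 in replicate 1 (rank 16622) and 22.8 in replicate 2 (rank 11393), with its pooled summit 875 bp downstream of the start, past the gene and inside memi-3. Its partner his-66 (H2B) had 57.0 in the pooled list (rank 23316), 38.6 in replicate 1 (rank 29911) and 15.2 in replicate 2 (rank 29523), close to the lowest listed signal in the replicate lists.

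The largest clusters were nearly free of listed regions. The cluster of 13 genes on chromosome II (13817760 to 13828697, WBcel235) held 0 pooled summits inside it, and its only gene with a pooled region was his-42, an H3 gene at its edge. The his-42 region had 128.2 in the pooled list (rank 1246), 92.7 in replicate 1 (rank 1527) and 35.2 in replicate 2 (rank 2203). Its summit lay 767 bp upstream of his-42, inside the small nuclear RNA gene F08G2.10, so the high value cannot be assigned to the histone gene. The clusters of 6 genes (8847393 to 8854053) and 8 genes (8889488 to 8898539) on chromosome V had 0 genes with a region in any of the 3 lists. The clusters of his-47, his-48, his-46 and his-45 and of his-55, his-56, his-58 and his-57 on chromosome IV also had 0 genes with a pooled region. In replicate 2, his-45 had a region of 15.7 (rank 27867) and his-16, on chromosome II, a region of 22.4 (rank 12109). Over all 14 clusters, 11 pooled summits fell inside 55266 bp, which is 1.99 per 10 kb, against 2.99 per 10 kb over the whole nuclear genome, and 7 of 14 clusters held a summit.

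Repeated sequence moved with these values. The share of 50-base words within 1 kb of a gene start that occur once in the genome, on either strand, had a median of 26.2% for clustered core genes. It was 100% both for variant and linker genes, whose lowest value was 82.2%, and for all protein-coding genes. Clustered genes with a pooled region had a median of 90.5% and those without had 15.6%. The cluster of 13 genes on chromosome II had a median of 8.71%, and both large clusters on chromosome V had 0.0%. At the other end, the clusters of his-67 and his-68, of his-59 to his-62 and of his-35, his-41 and his-37 had medians of 97.3%, 95.1% and 99.95%.

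Among all protein-coding genes with at most 50% unique words, 32 of 419 had a pooled region (7.64%), against 9482 of 19554 with more (48.5%). For clustered core genes the counts were 3 of 41 (7.32%) and 19 of 24 (79.2%). All 17 variant and linker genes had over 50%, and 10 of them had a region (58.8%). At 0.0% unique, 0 of 152 protein-coding genes had a region, 16 of them histone genes. The 3 listed genes with at most 50% were his-42, his-65 and his-66, whose summits lay outside their clusters. The 5 genes with over 50% and no pooled region were his-3, his-4, his-7, his-8 and the fragment his-39. The 19 listed genes shared 10 highest summits in 8 clusters, so 79.2% is not a share of independent sites, and it was not tested against 48.5%. A low share of listed genes was seen both in clustered core genes and in other genes where words were repeated. Neither read length nor the authors' handling of reads that map to several places is known here, and the part of repeated sequence in the result was not tested. The split at 50% was chosen after the values were seen.

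**Figure D2:**
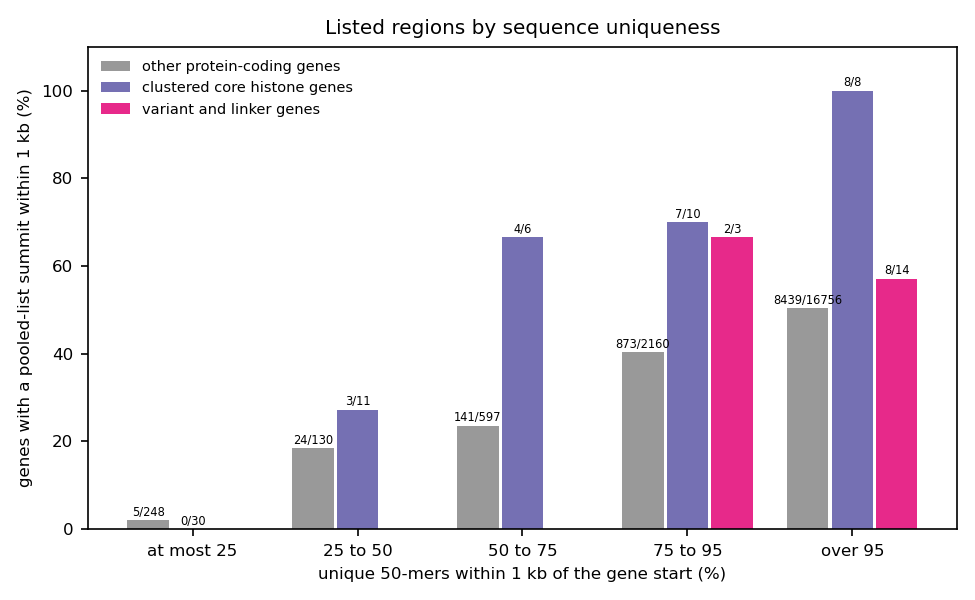
Percentage of genes with a pooled-list summit within 1 kb of the start (y axis), by the percentage of 50-base words around the start that occur once in the genome (x axis), for other protein-coding genes (grey), clustered core histone genes (violet) and variant and linker genes (pink), with counts over the bars. Of clustered core genes, 0 of 30 with at most 25% had a region and 8 of 8 with over 95% had one; no variant or linker gene had under 75%.

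Divergent pairs make up nearly the whole core set. There were 31 head-to-head pairs with starts within 1 kb: 16 of H2A with H2B, 14 of H3 with H4 and 1 of H2A with H4. The sequence between the starts was 234 to 321 bp (median 255) for H3 with H4 and 227 to 327 bp (median 292) for H2A with H2B. An exact second copy of the whole sequence existed for 5 of the 14 H3 and H4 pairs and for 12 of the 16 H2A and H2B pairs. A pooled summit lay between the starts of 4 pairs, which were his-60/his-59, his-67/his-68, his-35/his-41 and his-2/his-1. The IDR list had a summit there in 2, replicate 1 in 4 and replicate 2 in 5, the fifth being his-61/his-62. All 4 pooled pairs were among the 11 pairs with over 50% unique words, and the 20 pairs with less had 0. Of the 4, his-35/his-41 was at most 52.0% identical to any other pair of H2A with H2B, while his-2/his-1 was 89.9% identical to his-6/his-5, whose summit lay 92 bp downstream of the his-5 start. Since 61 of the 65 core genes have no annotated 5' untranslated region, their starts here are start codons, and a summit between starts lies upstream of both coding sequences.

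**Figure D3:**
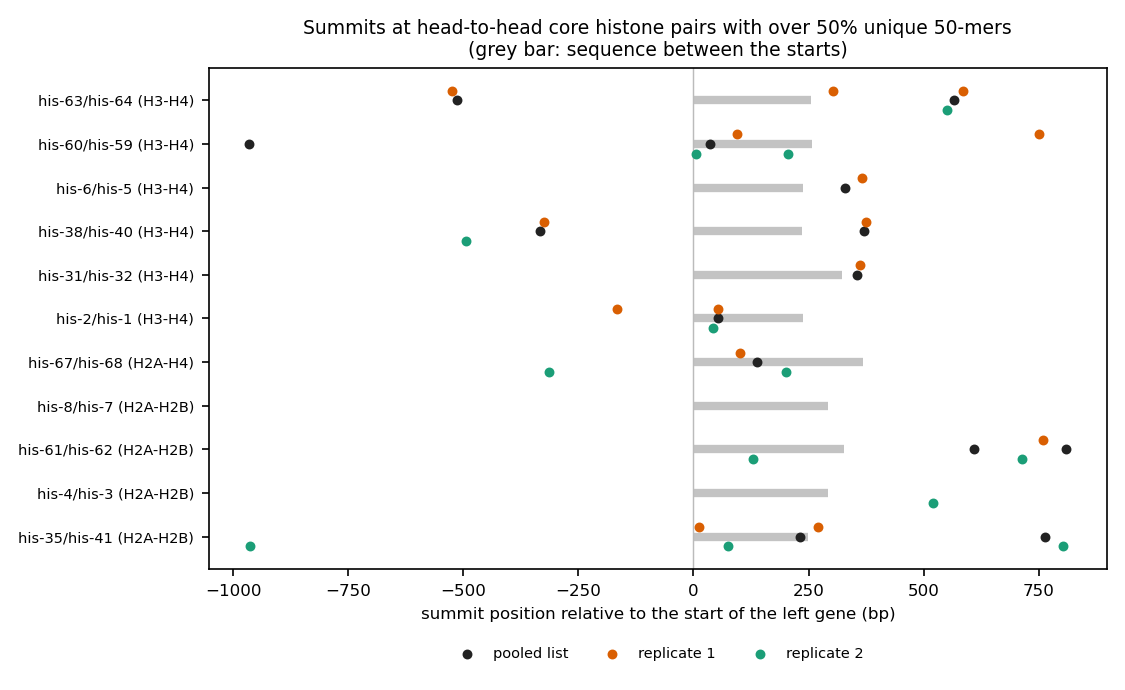
Summits of the pooled list (black), replicate 1 (orange) and replicate 2 (green) within 1 kb of the 11 head-to-head pairs with over 50% unique words, plotted by distance (bp) from the start of the left gene; the grey bar spans the sequence between the starts. In his-60/his-59, his-67/his-68, his-2/his-1 and his-35/his-41 at least 1 summit of every list falls on the bar, while his-8/his-7 has no summit in any list.

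The variant with the highest score was htz-1 (WBGene00019947), which encodes H2A.Z, a variant placed at the nucleosomes next to promoters. Its region had 183.0 in the pooled list (rank 400), 122.0 in replicate 1 (rank 576) and 51.9 in replicate 2 (rank 470). The summits lay at -317, -277 and -302 bp from the start, upstream of it in all 3 lists. The site lies in the sequence between htz-1 and the divergent gene wapl-1, a cohesin release factor, and the pooled summit was nearer to the start of wapl-1 (159 bp). A lower region of 132.4 (rank 1120) lay 937 bp downstream of the htz-1 start and 178 bp from the start of chat-1. The htz-1 region therefore cannot be given to htz-1 rather than to its neighbour.

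The H3.3 genes and hcp-3 had lower values than htz-1. Of 6 genes grouped as H3.3, 4 had a pooled region (66.7%, against 47.6% of all protein-coding genes). The highest was his-72, with 100.4 in the pooled list (rank 3395), 78.6 in replicate 1 (rank 3009) and 34.9 in replicate 2 (rank 2272). Its pooled summit lay 536 bp downstream of the start, inside the small nucleolar RNA gene Y49E10.36. The replicate 2 summit of his-72 lay elsewhere, 249 bp downstream of the start. It fell at another pooled region of 87.3 (rank 6043), below the 93.9 that marks the highest 10.0% of scores. Replicate 1 had 47.7 (rank 18366) there. The short gene his-73 had 65.3 in the pooled list (rank 16538), 46.1 in replicate 1 (rank 20182) and 24.8 in replicate 2 (rank 8749), with the pooled summit nearer to the start of W09H1.3. The replicate 1 value of his-73 came from a summit on the other side of its start, and at the pooled region replicate 1 had 39.2 (rank 29055), near the lowest of that list. The gene his-70 had 63.3 (rank 17991), 55.3 (rank 11762) and 18.4 (rank 20014) in the same lists, but replicate 2 had no summit within 200 bp of the pooled one. For his-74 the values were 57.3 (rank 22996), 38.8 (rank 29583) and 19.9 (rank 16622), and its pooled summit, matched within 200 bp by replicate 2 alone, was 33 bp from the start of ccch-3. The genes his-69 and his-71 had no pooled region, and his-71 had 21.4 in replicate 2 (rank 13807). The CENP-A gene hcp-3 had 54.2 in the pooled list (rank 25993) and 57.4 in replicate 1 (rank 10402), and none in replicate 2. Thus his-72 was the only H3.3 gene among the highest 10.0% of scores. The highest pooled regions of his-72, hcp-3 and his-70 were matched within 200 bp by replicate 1 alone.

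Among linker genes, 4 of 9 had a pooled region (44.4%, against 47.6% of all protein-coding genes), and the replicates differed in rank at the highest. The hil-7 region had 120.2 in the pooled list (rank 1620), 99.1 in replicate 1 (rank 1166) and 19.02 in replicate 2 (rank 18587), with the pooled summit 67 bp upstream of its start and 496 bp from the small nucleolar RNA gene C01B10.48. The hil-4 region had 119.6 (rank 1650) in the pooled list, 70.7 (rank 4735) in replicate 1 and 53.6 (rank 422) in replicate 2, with the summit 87 bp downstream of the start. Replicate 1 ranked hil-7 above hil-4, and replicate 2 ranked hil-4 far above hil-7. The hil-6 region had 97.6 in the pooled list (rank 3809), 70.5 in replicate 1 (rank 4784) and 22.6 in replicate 2 (rank 11653), 179 bp downstream of the start. The hil-3 region had 56.2 in the pooled list (rank 24063), 40.1 in replicate 1 (rank 27736) and 18.99 in replicate 2 (rank 18645). No pooled region was listed for hil-1, hil-2, hil-5, hil-8 and his-24, and of these hil-5 had 40.7 in replicate 1 (rank 26877). Of these 5 genes, hil-1 had 82.2% unique words around its start and the others had 100%, so here the lack of a region did not coincide with mostly repeated words.

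**Figure D4:**
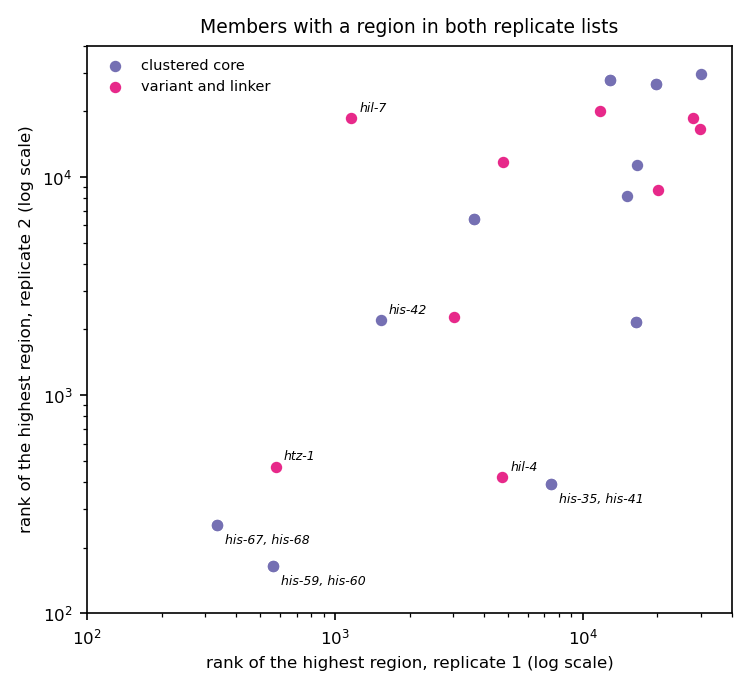
Rank of the highest region of each histone gene in replicate 1 (x axis) and replicate 2 (y axis), both log scales with rank 1 as the highest, for the 27 members with a region in both lists; violet points are clustered core genes and pink points variant and linker genes, and genes of a pair share a point. The genes his-59, his-60, his-67, his-68 and htz-1 lie within the highest 906 of both lists, whereas hil-4, his-35 and his-41 do so in replicate 2 alone.

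Where regions lay relative to the genes was mixed. Of the 31 regions near members, 25 had a histone gene as their nearest protein-coding start, 8 lay upstream of the nearest member start and 6 lay within 500 bp of a small RNA gene. For members with a region the median pooled signal was 85.6, which was the same for clustered genes alone, against 81.4 for variant and linker genes and 71.4 for all protein-coding genes with a region. A 12-base repeat, printed here because copies of it lay near 12 of the 20 IDR summits in the densest window at the left end of chromosome IV, was looked for near the histone genes.
12-base repeat (chromosome IV): agcctcaaccaa
The genome held 1002 copies, on both strands together. It occurred within 1 kb of the start of 0 of 82 histone genes and of 76 of 19973 protein-coding genes. A copy was thus rare near protein-coding starts in general, and its absence at 82 genes does not set the histone genes apart.

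Genes that supply histones were taken as a list of 28 symbols covering histone mRNA processing, chaperones and assembly, exchange of variants, and acetylation. Under these symbols 26 were found, and cde-1 and daxx-1 were not. The list was chosen with earlier results of these data known, so its shares below are descriptions. Their difference from the background was not tested. A pooled region was listed at 16 of 26 (61.5%) against the 47.6% of all protein-coding genes, and an IDR region at 3 of 26 (11.5%) against 2.5%. The highest was ego-1, an RNA-dependent RNA polymerase of the germline, with 414.6 in the pooled list (rank 26), 338.4 in replicate 1 (rank 16) and 79.4 in replicate 2 (rank 105). Its summit lay 378 bp upstream of the start, and its signal was above that of every histone gene. The chaperone gene lin-53, which encodes a histone-binding WD40 protein, had 152.3 (rank 695), 98.1 (rank 1220) and 46.2 (rank 721) in the same lists. The acetyltransferase gene hat-1 had 148.0 (rank 765), 90.8 (rank 1669) and 54.0 (rank 408). The Argonaute gene csr-1 came next with 87.8 (rank 5905), 58.4 (rank 9821) and 27.6 (rank 5880), below the IDR list. Of the list, 20 genes had a region in replicate 2 (76.9%, against 46.9% of all protein-coding genes) and 16 in replicate 1 (61.5%, against 47.6%). Both replicates had a region at 14 (53.8%, against 33.1%).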

How the data were processed

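ZIM-3-GFP ChIP-seq regions were compared at the histone genes in 2 biological replicates of 1 group, so no conditions were compared and no test was made. The authors deposited, on ce11 (the WBcel235 sequence), a list of peaks and background per replicate, a list called on both replicates together with a control library, and an IDR-thresholded list, per the deposited file descriptions. Signal is the region value the authors deposited, on a scale that no source explains. The −log10 q-value that the authors deposited was not used for ranking. Aligner, peak caller, versions and IDR threshold were not given in the sources used here. Lists on ce10 were not used.

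Genes came from Ensembl release 115, and symbols and products from RefSeq by gene ID, since Ensembl names the 82 members with 60 distinct names. All 82 matched. Word uniqueness was counted in the genome for 50 bases, with 36 and 100 as alternatives. Other alternatives were the distance (500 bp, 2 kb), the list, the region overlap, the highest 10000 regions, the cluster gap (2 and 20 kb) and regions near small RNA genes. Scoring and word counts were tested on simulated data. Tools were Python 3.11.15, numpy 2.4.6, pandas 2.3.3, Biopython 1.88 and matplotlib 3.10.9. The members and lists were chosen with earlier results of these data known. Genes named with values were those with an IDR region, the 15 highest scores, all variant and linker genes, the highest gene of each cluster, and up to 4 genes of the supply list. Other clustered genes, such as his-3, his-16 and his-45, were named after their values were seen. The median and pair comparisons are descriptions. Depth is unknown, so no interval is given for any signal.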

Additional observations from a re-analysis of the deposited data

How the results depend on the processing

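Of the recomputed counts and medians over members, 49 stayed and 8 moved. A count stays within 1.5 times the main value, and the median unique share within a 95% binomial interval. That interval treats overlapping words as independent and leaves out the spread between genes. For score percentiles of 27 named members, 56 stayed and 52 moved, judged by the standard deviation of the 2 replicates of the same gene. A gene whose replicates differ more is thus counted as stayed more easily. Without replicate 1, hcp-3 went from 56.84 to 26.55, the value of no region, and was counted as stayed. With summits within 500 bp, htz-1 went from 98.77 to 99.2 and was counted as moved. These counts therefore do not measure how stable a score is. With summits within 500 bp, his-42 fell from 96.55 to 34.79, the value of no region. Without replicate 1, hil-7 fell from 95.68 to 67.73. Some moves were at genes with no region, whose shared percentile changes with the setting. With the highest 10000 regions, regions were found at 18 members (22%), 13 clustered genes and 5 variant and linker genes, over 16 distinct regions, against 19.6% of all protein-coding genes. With summits within 500 bp, 26 members had a region (31.7%, against 30.4%), so the members' share was above the background in these settings and below it in the others for which both shares were computed. With summits within 2 kb, 49 distinct regions lay near members. Restricting the variant and linker genes to htz-1, hcp-3 and hil- genes gave 6, against 10 of 17 in the main count. The restricted set holds fewer genes, so the lower count is not a lower share. With 100-base words the median unique share of clustered genes was 32.3%. Leaving out a replicate gave 32 to 33 members, 5 to 8 for the IDR list, 22 to 22 clustered genes, 10 to 11 variant and linker genes, 10 to 12 members in the highest scores, 35 to 37 distinct regions, 17 to 19 listed genes with over 50% unique words and 4 to 5 pairs. The count of 8 came from the 906 highest regions of replicate 2, which adds hil-4, his-35 and his-41. The cause of these moves was not tested. Alternatives for the unique-word split, the pairs and the nearest starts (29 members) were chosen after seeing the data. Without replicate 1, hcp-3 had no region and his-71 gained a region. No paired analysis was possible because there is 1 group. Signal over background limits what is listed: a gene with no region may lie just below the lowest listed signal, and depth is unknown.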
